A study of Mus musculus with 2 samples.

Results

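The aryl hydrocarbon receptor and its direct targets are represented here by 7 genes, Ahr, Arnt, Ahrr, Tiparp, Cyp1a1, Cyp1a2 and Cyp1b1. They were chosen by symbol, as the rows of the deposited value table whose platform annotation names one of them, and all 7 of 7 were found, each with 1 probe set, among 19505 named genes. The smoke sample was RNA of sorted mouse lung cells, positive for an SPC/GFP reporter and for the epithelial surface protein EpCAM, from mice exposed to smoke for 3 months. The air sample was the same sorted population from control mice kept in air for 3 months. Each condition had 1 Affymetrix Clariom S Mouse array, a whole-transcript microarray. The sources used here do not give the strain, sex or age of the mice, how many were used per sample, the kind of smoke, or the construct that drives the reporter.

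Every value below is a deposited signal, taken as log2, of 1 array. Neither an error nor a p-value can be attached to a difference without replicates, so the comparisons are between these 2 samples rather than between the conditions. Values ran from 1.55 to an upper limit of 19.93, with medians of 4.53 on the smoke array and 4.61 on the air array. Sftpc, the surfactant protein C gene of type 2 alveolar cells, had this highest value on both arrays, and Epcam was at 10.92 on the smoke array and 11.09 on the air array. Sftpc, which shares its name with the reporter, and Epcam were thus both well above the median. All 8 measured endothelial markers were above the median too, with Cdh5 at 13.86 on the smoke array and 14.34 on the air array. These signals therefore do not show how pure the sort was. In a bulk sample such as this, fewer cells of a type and less RNA per cell cannot be told apart.

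The aryl hydrocarbon receptor is a ligand-activated transcription factor of the bHLH-PAS family. Polycyclic aromatic hydrocarbons, which form when organic matter burns, bind it in the cytosol, and it then enters the nucleus, pairs with ARNT and binds DNA elements with the core GCGTG. Its targets include the cytochrome P450 enzymes of family 1, which oxidise those hydrocarbons and can turn some of them into DNA-reactive products. Its targets also include 2 of its own brakes, the repressor AHRR, which competes for ARNT, and TIPARP, an ADP-ribosyltransferase that promotes loss of the receptor.

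The 250 bases before the transcription start were read for the members from the RefSeq promoter table (GRCm38.p6), which held a window for 6 of the 7 members. They are shown because the members other than Ahr and Arnt are taken as targets through this core. The core was searched as GCGTG on both strands, so that it appears as GCGTG or CACGC, and it is printed in capitals within the lower-case window. The windows printed are those of Cyp1b1 at chr17:79715062-79715311 (minus strand), Tiparp at chr3:65528197-65528446 (plus strand), Ahrr at chr13:74292332-74292581 (minus strand) and Cyp1a1 at chr9:57697363-57697612 (plus strand), each read 5′ to 3′ along its gene.
Cyp1b1: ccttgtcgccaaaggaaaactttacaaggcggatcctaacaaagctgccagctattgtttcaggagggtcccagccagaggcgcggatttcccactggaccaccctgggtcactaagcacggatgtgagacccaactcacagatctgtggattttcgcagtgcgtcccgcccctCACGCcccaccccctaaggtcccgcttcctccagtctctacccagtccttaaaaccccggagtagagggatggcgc
Tiparp: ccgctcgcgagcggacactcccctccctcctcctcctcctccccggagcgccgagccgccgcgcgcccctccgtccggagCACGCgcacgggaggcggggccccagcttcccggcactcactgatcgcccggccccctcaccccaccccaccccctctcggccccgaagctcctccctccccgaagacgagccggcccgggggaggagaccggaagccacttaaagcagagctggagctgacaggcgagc
Ahrr: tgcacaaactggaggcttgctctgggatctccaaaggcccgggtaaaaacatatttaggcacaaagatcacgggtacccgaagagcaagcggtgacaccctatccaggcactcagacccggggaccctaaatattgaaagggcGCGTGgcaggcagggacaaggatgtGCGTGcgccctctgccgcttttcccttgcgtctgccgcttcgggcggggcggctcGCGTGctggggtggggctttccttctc
Cyp1a1: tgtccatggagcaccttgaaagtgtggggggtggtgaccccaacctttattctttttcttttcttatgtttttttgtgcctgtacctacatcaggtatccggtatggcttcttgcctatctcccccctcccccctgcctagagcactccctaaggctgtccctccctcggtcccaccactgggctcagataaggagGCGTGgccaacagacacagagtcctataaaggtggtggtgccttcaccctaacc

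Ahrr held 3 copies of the core in this window, whose first bases lay 107, 82 and 27 bases before the start. Cyp1b1 held 1 copy at 76 bases, Tiparp 1 at 170 bases, Cyp1a1 1 at 54 bases and Arnt 1 at 29 bases before the start. Cyp1a2 held 0 copies. Of 32851 promoter windows of the same length in the table, 28.2% held at least 1 copy and 2.77% held 3 or more. The core contains a CpG, and among the 9178 windows with at least 60% G and C the share with a copy was 53.9%. The G and C content was 58.0% for Cyp1b1, 75.2% for Tiparp, 60.4% for Ahrr, 53.6% for Cyp1a1, 57.2% for Arnt and 47.2% for Cyp1a2. Only Tiparp and Ahrr thus reached 60%, and the share of 53.9% does not apply to the other windows. A match is a description of these letters and not a bound site. The best-studied response elements of mouse Cyp1a1 lie further upstream than this window.

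Between the smoke and the air sample, the gene of the receptor itself was level, its partner and 1 feedback target were higher by less than 2-fold, and the P450 genes differed among themselves. Cyp1b1 was 3.18-fold higher on the smoke array, while Cyp1a1 and Cyp1a2 stayed at low signal on both arrays. Differences of 2-fold or more were counted where at least 1 of the arrays reached a signal of 4.57, the median over all values of the table. Of the 7 members, 5 passed this level filter, of which 1 reached 2-fold on the higher side of the smoke array and 0 on the lower. For comparison, 10419 genes of the whole table passed the filter, and 3.94% of them were higher and 2.48% lower by this rule. Cyp1b1 passed the filter through its smoke signal alone, so that it had to differ in order to pass, and the count says nothing further about the members. At 1.5-fold, 2 of the 5 were higher (Cyp1b1 and Tiparp) and 0 lower, beside 14.5% and 9.19% of all genes above the filter. Over all 7 members the median log2 difference, smoke minus air, was -0.03, and over all 19489 genes below the upper limit it was -0.02. Over the 5 members above the filter the median was 0.58, beside 0.06 over all genes above the filter, but this leaves out both dim P450 genes and takes in Cyp1b1 through its smoke signal alone. In sign, 3 members were higher on the smoke array and 4 lower.

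**Figure D1:**
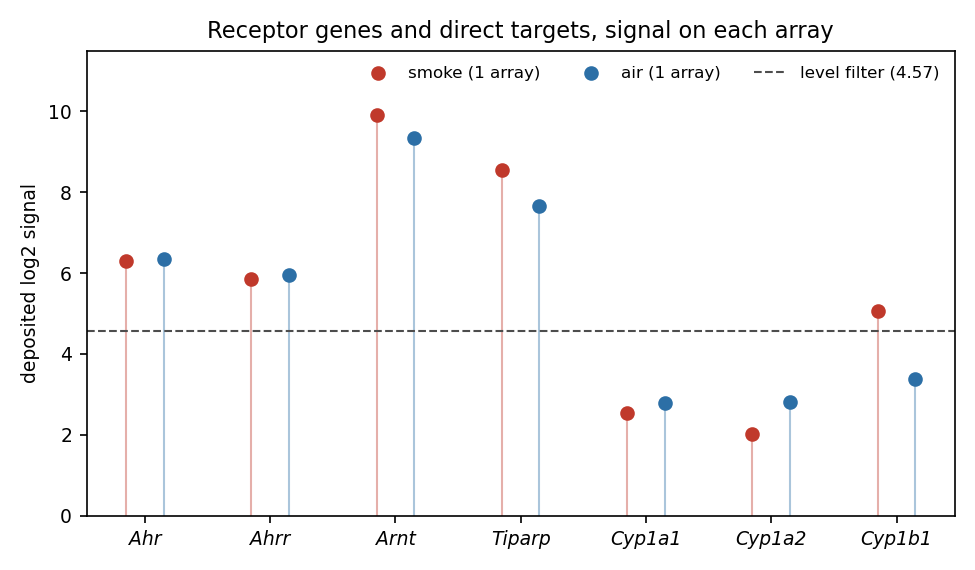
Deposited log2 signal (vertical axis) of the 7 members on the smoke array (red, left) and the air array (blue, right), 1 point per array, with the level filter of 4.57 as a dashed line. Cyp1b1 is above the line on the smoke array only (5.06 against 3.39), and Cyp1a1 and Cyp1a2 are below it on both.

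Each member's difference was also set beside those of the 200 genes nearest to it in mean signal. The spread of those differences, as a robust SD (a scaled median absolute deviation), was between 0.33 and 0.48 on the log2 scale for the 7 members. It holds measurement error and real differences together and does not replace replicates.

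Ahr, which encodes the receptor, had a log2 signal of 6.31 on the smoke array and 6.34 on the air array. The difference of -0.03 lay within the interquartile range of genes of like level, -0.20 to 0.45. Arnt, which encodes the partner that Ahr needs to bind DNA, had a log2 signal of 9.91 on the smoke array and 9.33 on the air array. It was 1.49-fold higher, and of its 200 genes of like level 165 had a smaller difference and 33 a larger one. The Arnt difference of 0.58 was thus larger than the robust SD of its neighbours, 0.45, and inside their central 95%, -0.74 to 1.02.

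Ahrr, the repressor and a sensitive target of the receptor in many tissues, had a log2 signal of 5.85 on the smoke array and 5.96 on the air array. Its difference of -0.11 also lay within the interquartile range of its neighbours, -0.24 to 0.37. Tiparp, the other feedback gene, had a log2 signal of 8.55 on the smoke array and 7.67 on the air array. Tiparp was 1.84-fold higher, and 188 of its 200 genes of like level had a smaller difference. The difference of 0.88 lay inside their central 95%, -0.78 to 1.03. Both feedback genes were above the filter on both arrays, and of the 2 only Tiparp differed by more than the robust SD of its neighbours, 0.43.

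Cyp1a1, the P450 most often used to report activity of the receptor, had a log2 signal of 2.53 on the smoke array and 2.79 on the air array. Both values were below the level filter, and the difference of -0.26 lay within the interquartile range of its neighbours, -0.34 to 0.14. Cyp1a2, the neighbouring gene of the same family and mainly a liver enzyme, had a log2 signal of 2.03 on the smoke array and 2.82 on the air array. Its difference of -0.79 was below that of 199 of its 200 genes of like level, whose central 95% was -0.66 to 0.62. Both Cyp1a2 signals lay under the filter, close to the lowest value in the table, and with 16 added to each linear signal the difference was -0.20. By construction the offset shrinks any difference between signals this low, so it does not show how firmly the difference was measured. No detection calls were used here, and how firmly such a difference was measured was not tested.

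Cyp1b1, the family 1 P450 found mostly outside the liver, had a log2 signal of 5.06 on the smoke array and 3.39 on the air array. The smoke signal was just above the filter and the air signal below it. Its difference of 1.67 was larger than that of all 200 genes of like level, which ran from -1.80 to 1.53. The size depended on how low signals were read. With 16 added to each linear signal the Cyp1b1 difference was 0.90, and with the air signal set at the filter it was 0.49, or 1.40-fold higher. Both of these were under 2-fold. The filter is the median of all values and not a detection limit, so 0.49 is not a lower bound.

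**Figure D2:**
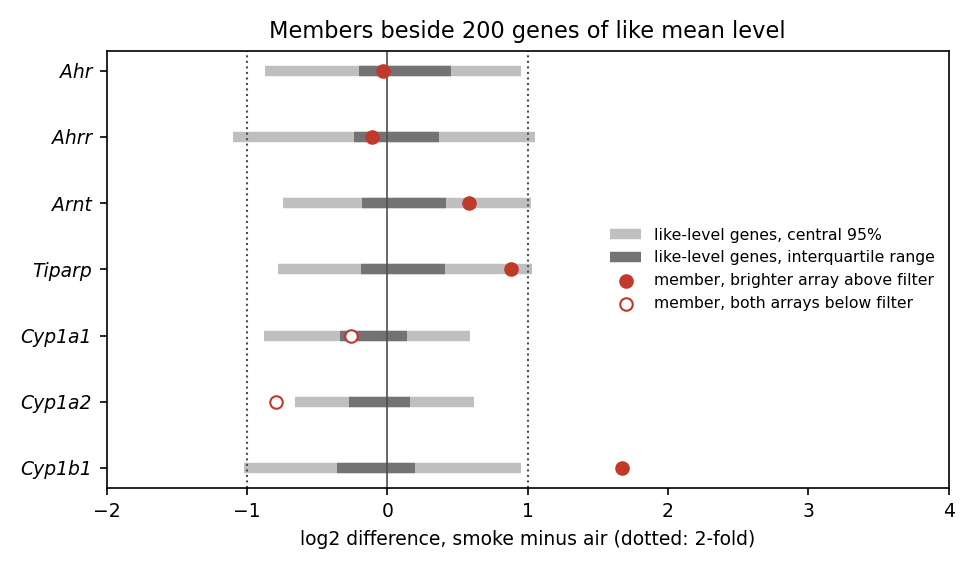
Log2 difference, smoke minus air (horizontal axis), of each member as a point, filled where the brighter array was above the level filter, on bars for the 200 genes of like mean signal (light, central 95%; dark, interquartile range). Cyp1b1 at 1.67 and Cyp1a2 at -0.79 lie outside the light bars, and the other 5 members lie inside.

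Nearness to other genes can be stated only over 2 arrays, as the distance between pairs of log2 signals. The nearest genes were Pck2 and Smim5 to Ahr, Zfp455 and Gpatch11 to Ahrr, Tspyl2 and Cxcl17 to Arnt, and Snapin and Zfp740 to Tiparp, all at distances of at most 0.032. Nckap1l and Ehd3 were the nearest to Cyp1b1, at 0.103 and 0.161.

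The other genes reported as targets of the receptor showed no common direction. Of 18 listed genes 14 were measured, with a median log2 difference of 0.29, beside -0.02 over all genes below the upper limit. Of the 14, 8 were higher and 6 lower on the smoke array. Of the 7 above the filter, 1 was higher and 0 were lower by 2-fold, and their median was -0.03, beside 0.06 over all genes above the filter. At 1.5-fold, 2 of the 7 were higher (Slc7a5 and Selenbp1) and 0 lower, beside 14.5% and 9.19% of all genes above the filter. The shares of all genes above the filter, for this list and those that follow, were 3.94% higher and 2.48% lower by 2-fold. Slc7a5, the large neutral amino acid transporter LAT1, was the 1 gene past 2-fold, with a log2 signal of 9.11 on the smoke array and 7.21 on the air array, 3.73-fold higher. Selenbp1, a selenium-binding protein, was at 13.62 on the smoke array and 12.85 on the air array. Scin, an actin-severing protein, was at 4.31 and Hspa4l, a chaperone of the HSP110 family, at 8.12 on the smoke array, against 4.74 and 8.40 on the air array. Several genes of the classical battery stayed under the filter. Nqo1, a quinone reductase shared with the NRF2 pathway, was at 4.04 on the smoke array and 3.34 on the air array, and Aldh3a1, an aldehyde dehydrogenase, was at 2.45 on the smoke array and 2.53 on the air array. Gsta2, a glutathione transferase of the alpha class, was at 3.29 on the smoke array and 2.92 on the air array. Cyp2s1, a P450 that also responds to the receptor, was at 9.96 on the smoke array and 9.75 on the air array.

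Genes of the cytosolic complex and of the coactivators were all within 2-fold. Of 11 listed genes 9 were measured, all above the filter, with a median of -0.11; 4 were higher and 5 lower. Ptges3, the p23 co-chaperone of the HSP90 complex that holds the receptor, was at 7.80 on the smoke array and 7.24 on the air array. Hsp90aa1, a gene of HSP90 itself, was at 13.78 on the smoke array and 13.49 on the air array. Ncoa2 differed by 0.50, Ncoa3 by -0.50 and the acetyltransferase gene Ep300 by -0.49 on the log2 scale, so the coactivators went both ways.

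The other bHLH-PAS factors, some of which share ARNT with the receptor, included the largest differences of all the pathway lists. All 13 were measured and 6 passed the filter, of which 0 were higher and 2 lower by 2-fold or more. These were Npas2 and Arntl, which act in the circadian clock. Npas2 was at 7.27 on the smoke array and 11.16 on the air array, 14.8-fold lower, and Arntl was at 6.29 on the smoke array and 9.91 on the air array, 12.3-fold lower. The hour at which each sample was taken did not enter the comparison, and its part in these differences was not tested. Clock, which encodes the partner of the Arntl product and is a paralogue of Npas2, was at 13.80 on the smoke array and 14.51 on the air array. The hypoxia factors that pair with ARNT were near level. Hif1a was at 12.84 on the smoke array and 12.93 on the air array, and Epas1 (HIF-2 alpha) was at 16.10 on the smoke array and 15.77 on the air array. The median over the 13 was -0.09.

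Enzymes of tryptophan and kynurenine metabolism, whose products include ligands of the receptor, had 10 of 11 listed genes measured and a median of 0.07. Of the 4 above the filter, 0 passed 2-fold in either direction. Kyat3, which can form kynurenic acid, was at 6.89 on the smoke array and 5.99 on the air array. Haao, which acts further down the pathway, was at 4.76 on the smoke array and 5.67 on the air array, and Afmid, which releases kynurenine, was at 5.38 on the smoke array and 4.73 on the air array. Kyat1, another kynurenine aminotransferase, differed by 0.13. Ido1, the inducible first enzyme of the route, was below the filter, at 1.94 on the smoke array and 2.40 on the air array.

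Other xenobiotic enzymes of the lung had 19 of 22 listed genes measured and a median of -0.06, with 9 higher and 10 lower. Of the 15 above the filter, 0 were higher and 1 was lower by 2-fold or more. Cyp4b1, a lung P450 also used as a club cell marker, was at 12.16 on the smoke array and 13.49 on the air array, 2.51-fold lower. Fmo2, a lung flavin monooxygenase, was at 9.09 on the smoke array and 9.68 on the air array. Cyp2f2, the other club cell P450, was at 15.80 on the smoke array and 16.13 on the air array. Ephx1, the epoxide hydrolase that acts after the family 1 enzymes on polycyclic hydrocarbons, was at 11.99 on the smoke array and 11.67 on the air array, and Gstm2, a glutathione transferase, also differed by 0.32.

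**Figure D3:**
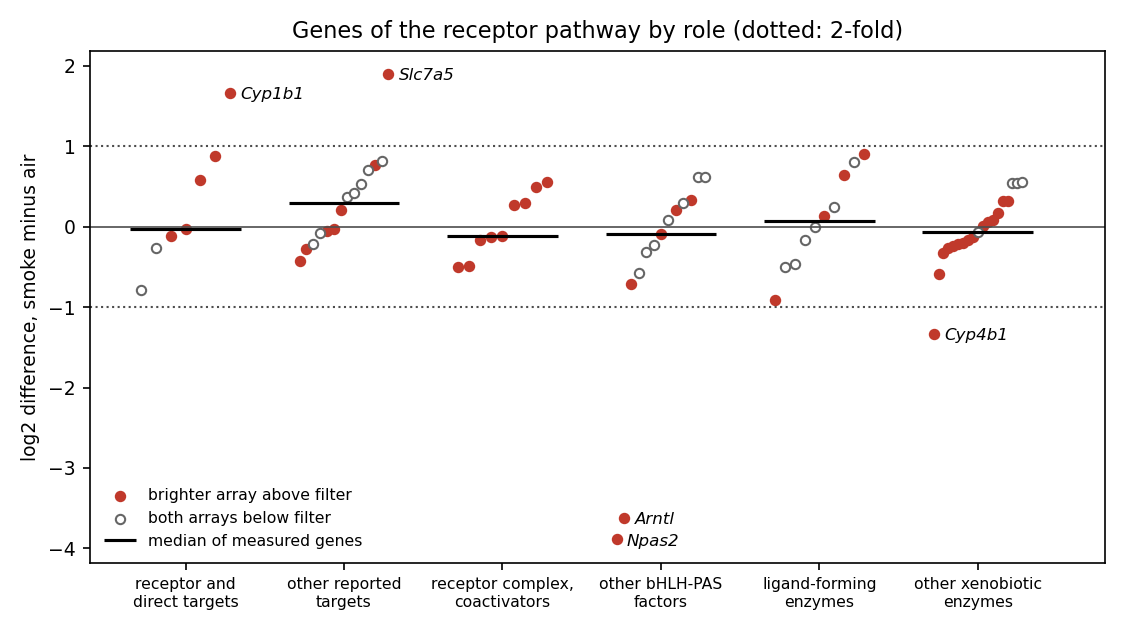
Log2 difference, smoke minus air (vertical axis), of every measured gene in 6 role groups, 1 point per gene, filled where the brighter array was above the level filter, with a bar at each group's median. Cyp1b1 and Slc7a5 lie above the 2-fold line and Cyp4b1, Arntl and Npas2 below it, while the 6 medians lie between -0.11 and 0.29.

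Marker genes of other cells were measured in the same arrays, since family 1 P450 genes are also expressed in endothelial, mesenchymal and myeloid cells. All 8 measured endothelial markers of 9 listed were lower on the smoke array, with a summed linear signal of 24100 on the smoke array and 38800 on the air array. Of 9 measured fibroblast and mural markers of 10 listed, 4 were higher and 5 lower, with sums of 394 on the smoke array and 428 on the air array. Among them Col1a1, a fibroblast collagen, was at 5.06 on the smoke array and 6.24 on the air array, and Pdgfrb, a mural cell receptor, was at 5.09 on the smoke array and 6.09 on the air array. Of 7 measured macrophage markers of 8 listed, 1 was higher and 6 lower, with sums of 1470 on the smoke array and 3090 on the air array. Chil3, a chitinase-like macrophage gene, carried most of that sum, and the other 6 markers summed to 533 on the smoke array and 618 on the air array, a set chosen after the values were seen. Of 8 measured lymphocyte markers of 9 listed, 4 were higher and 4 lower, with sums of 463 on the smoke array and 474 on the air array. Of 5 measurable club cell markers, 2 were higher and 3 lower, and Scgb1a1 had the highest value of the table on both arrays. Pecam1 (CD31, endothelial) was at 9.97 on the smoke array and 10.70 on the air array, and Ptprc (CD45, leukocytes) was at 7.59 on the smoke array and 7.64 on the air array. The markers past 2-fold with the brighter array above the filter were Cldn5, Eng, Col1a1, Pdgfrb, Chil3, Scgb3a1 and Cyp4b1, all lower on the smoke array, and Cd3d, which was higher. Cd3d was at 4.66 on the smoke array and 3.63 on the air array, so it passed the filter through its smoke signal alone. With 16 added to each linear signal the Cd3d difference was 0.54. Cd3e and Cd4 of the same list differed by 0.09 and -0.33. Cd8a, also of that list, differed by 0.02 but was below the filter on both arrays. Below the filter, Siglecf was at 2.43 on the smoke array and 3.67 on the air array. The part of such cells in the values of Cyp1b1, Cyp4b1 or the other genes was not tested.

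**Figure D4:**
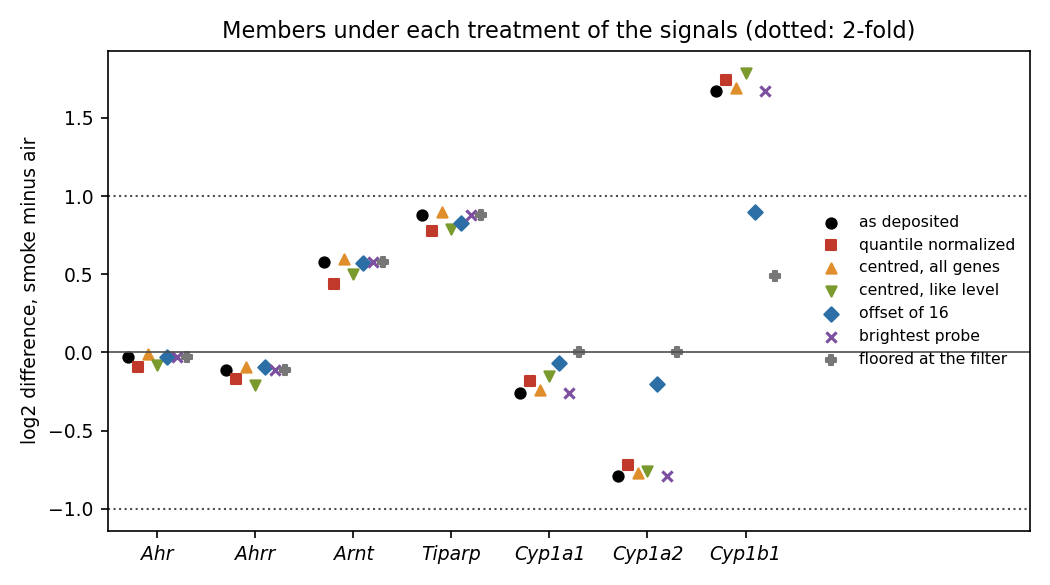
Log2 difference, smoke minus air (vertical axis), of each member as deposited and under 6 other treatments of the signals, 1 symbol per treatment. Arnt stays between 0.44 and 0.60 and Tiparp between 0.78 and 0.90, while Cyp1b1 falls under the 2-fold line with an offset (0.90) or with low signals set to the filter (0.49).

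Across those treatments Ahr stayed between -0.09 and -0.01 and Ahrr between -0.21 and -0.09. By construction, the brightest probe set left every member as deposited. Setting low signals to the filter likewise left Ahr, Ahrr, Arnt and Tiparp as deposited. The lower sign of Cyp1a1 and Cyp1a2 was lost where signals under the filter were set to the filter, which puts both at 0.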

How the data were processed

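The authors deposited 1 log2 value per platform identifier and array; the log2 scale was read from the values, since the labels do not state it. Per the submitters' processing notes, the tool was Transcriptome Analysis Console. The sources used here do not give its version or settings, the background correction, how arrays were normalized or the build, so folds hold on the deposited scale only. Of 22206 identifiers 19572 carried 1 gene symbol and 2634 are unnamed here; identifiers of a gene were averaged (55 genes; no member). Counts leave out 16 genes whose signal was at the highest value of the table on each array. Differences are smoke minus air. The median of all values (4.57) was the level filter and 2-fold the threshold, and like-level genes were the 200 nearest in mean signal. With 1 array per group no test was possible, and the number of arrays limits the precision. The procedure was run on simulated data, with differences placed only in genes whose air signal was well above the level filter. It therefore did not test differences at air signals as low as those of Ahrr, Cyp1a1, Cyp1a2 and Cyp1b1. Named genes are the members, list genes past 2-fold or among the 4 largest differences above the filter of a pathway list, and genes fixed by name, not all of which were analysed here. Hsp90aa1, Gsta2 and Siglecf were added after their values were seen. Cd3e, Cd4 and Cd8a were named beside Cd3d outside these rules. Members and lists were chosen with earlier results of these data known. Alternatives were other filters, thresholds of 1.5-fold and 3-fold, quantile normalization, 2 centrings, an offset of 16 and the brightest probe set. Python 3.11.15 and pandas 2.3.3 were used.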

Additional observations from a re-analysis of the deposited data

How the results depend on the processing

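Each member had 1 probe set, so taking the brightest probe set could not change a member. Centring on all genes took away a median of only -0.02. The count of members past 2-fold was 1 (Cyp1b1) and stayed 1 without a filter, at 3-fold, and under quantile normalization and both centrings. It was 0 with the offset of 16, 0 with low signals set to the filter (an alternative chosen after seeing the data), 0 with a filter at the 75th percentile and 0 with a filter on the mean of both arrays; it was 2 at 1.5-fold. The call of Cyp1b1 thus depends on how signals near the filter are treated. The counts of 0 follow by arithmetic from its signals on the 2 arrays and are not independent checks. The count over the other 5 pathway lists was 4 of 41 above the filter and 10 at 1.5-fold, and lay between 3 and 4 otherwise. Of all genes above the filter, 3.94% were higher and 2.48% lower at 2-fold, and 14.5% and 9.19% at 1.5-fold. Beside these shares the counts say nothing particular about the lists. The members' median of -0.03 was 0.73 with the filter at the 75th percentile. It was 0.58 over the members above the level filter (also chosen after seeing the data). By construction only 2 and 5 members enter these medians. With the filter on the mean of both arrays, which leaves out Cyp1a1, Cyp1a2 and Cyp1b1, the median was 0.275. Cyp1a2 was at -0.20 with the offset and 0 with low signals set to the filter. Ahr, Ahrr, Arnt, Tiparp and Cyp1a1 moved by less than the like-level spread under the 6 treatments, not all of which could move them. That spread was 0.31 to 0.54 with 100, 200 or 500 neighbouring genes. The brightest probe set could move no member, and setting low signals to the filter could not move Ahr, Ahrr, Arnt or Tiparp. Signal over background limits what can be read for Cyp1a1 and Cyp1a2. No paired analysis was possible because each group has 1 array.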
